A study of Homo sapiens with 2 samples.

Results

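The regions described here are the stretches of DNA that lie behind the annotated end of a gene, as seen by the oligonucleotide probes of a promoter microarray whose annotation places them downstream of a gene. Of the 474411 genomic probes on the 2 arrays, 8085 carried this class (3674 on the array chIP1 and 4411 on the array chIP2), and they belonged to 1565 genes. The class is a label of the array design and no measured value was used to choose it. Both arrays came from 1 ChIP-on-Chip experiment in non-treated Meg-01 cells, which derive from a human megakaryocytic leukemia. DNA pulled down with an antibody against the transcription factor GATA1 (C-20), here called the IP, was labeled with Cy5 and hybridized together with DNA pulled down by normal goat IgG, labeled with Cy3. The 2 arrays hold different probes, so each probe was measured in 1 hybridization, without a replicate and without a dye swap. Every value below therefore describes these arrays, no p-value was computed, and the IgG channel served as the background. The 1371 negative control spots of an array had median raw signals of 342 (chIP1) and 340 (chIP2) in the IP dye and of 303 in the IgG dye.

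GATA1 is a zinc finger protein that binds DNA at GATA motifs and directs the development of erythroid cells and megakaryocytes. Many of its known sites are not in promoters but in introns and in enhancers before or behind a gene, and the enhancer behind the beta-globin gene is a textbook case. Promoter arrays are laid out around transcription starts, so they reach past the end of a gene mainly where the gene is short. Olfactory receptor genes, histone genes, keratin associated protein genes and microRNA (miRNA) genes are of this kind, and they made up part of the downstream set. The downstream probes lay at a median distance of 2236 bp from the start of their gene (range 72 to 361409 bp), and 61.5% of them lay within 2500 bp of it.

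Values are log2 ratios of IP over IgG, centered so that the median probe of either array is at 0, and averaged over windows of 3 neighboring probes with steps of at most 1000 bp. Windows were assigned by their center probe, and 6451 windows of 1320 genes had a downstream center (2953 on chIP1 and 3498 on chIP2), while 245 of the 1565 genes had none. A window was counted toward the IP or toward IgG when its mean ratio reached 2-fold in that direction. Of the 8085 probes, 8059 passed the filter on outliers and dim signals. The windows of each array were also sorted by mean signal into 4 bins of equal size, from the dimmest to the brightest. Chromatin fragments averaged 500 to 1000 bp and neighboring windows share probes, so neighboring windows are not independent. Within a downstream window the highest and the lowest probe differed by a median of 1.02 log2 units, whereas the most repeated control spot had an SD of 0.048 (chIP1) and 0.044 (chIP2) log2 units over its 480 copies on the array.

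Behind gene ends, ratios lay toward IgG. On the IP side were 440 of the 6451 downstream windows (6.82%), where all 415403 windows of the arrays gave 7.62%. On the IgG side were 985 downstream windows (15.3%), where all windows gave 9.65%. The IP side thus held 30.9% of the downstream windows past 2-fold and 44.1% of all windows past 2-fold. The median downstream window was at -0.15 log2 units and the median of all windows was at 0.02. In 372 of the 440 windows toward the IP (84.5%) all 3 probes were above 0, and in 80 of them (18.2%) all 3 reached 2-fold. Over all windows toward the IP on the arrays these shares were higher, at 88.1% and 21.8%. Of the downstream windows toward IgG, 90.6% had all 3 probes below 0 and 35.2% had all 3 past 2-fold. By gene, 227 of the 1320 genes (17.2%) had a window toward the IP, 384 (29.1%) had one toward IgG, 42 had both and 751 had neither.

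MicroRNA genes are among the shortest genes known, and the windows behind them lay to both sides. A miRNA gene yields a hairpin from which a short mature strand is cut, and bases 2 to 8 of that strand, the seed, pair with target messages. The miRNA genes were singled out after their values had been seen. Of the 85 miRNA genes with a downstream window, 60 were matched to RefSeq sequences (GRCh38.p14). The 10 mature strands below belong to genes with a downstream window past 2-fold to one side, 2 groups of which share a seed. These 2 groups were picked from several with a shared seed, and other groups differed in side. They are written 5′ to 3′ with the seed in capitals.

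hsa-let-7d-5p: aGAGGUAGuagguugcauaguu

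hsa-let-7i-5p: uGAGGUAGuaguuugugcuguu

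hsa-let-7b-5p: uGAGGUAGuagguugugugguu

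hsa-miR-182-5p: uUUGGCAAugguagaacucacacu

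hsa-miR-187-3p: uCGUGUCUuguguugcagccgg

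hsa-miR-130b-3p: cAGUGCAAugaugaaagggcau

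hsa-miR-16-5p: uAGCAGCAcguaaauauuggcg

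hsa-miR-195-5p: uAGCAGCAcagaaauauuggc

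hsa-miR-221-3p: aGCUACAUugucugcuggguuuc

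hsa-miR-363-3p: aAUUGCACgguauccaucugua

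The first 3 strands share the seed of the let-7 family, which is known for its role in differentiation, and all 3 of these genes had a downstream window toward the IP. Behind hsa-let-7d on chromosome 9 the highest window reached 2.49 log2 units with its 3 probes between 1.97 and 3.18, and 5 of its 10 windows were toward the IP. Behind hsa-let-7i on chromosome 12 the highest of 27 windows was at 1.59 and 7 were toward the IP. Behind hsa-let-7b on chromosome 22 the highest of 12 windows was at 1.35, with single probes from 0.33 to 2.18. These windows were not alike in brightness, since the windows of hsa-let-7d and hsa-let-7i were in the dimmest bin of their arrays and that of hsa-let-7b was in the next to brightest. Each of hsa-let-7d and hsa-let-7i also had 1 window toward IgG. Another let-7 gene, hsa-let-7a-2 on chromosome 11, had its 9 downstream windows between -1.29 and 0.18, with 3 toward IgG.

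Behind hsa-mir-182 all 10 windows were above 0, from 0.04 to 1.97, and 5 were toward the IP. Its highest window was even, with 3 probes between 1.81 and 2.06. The 6 windows of hsa-mir-187 ranged from 0.50 to 1.61 and the 6 windows of hsa-mir-130b from 0.70 to 1.37, again without a value below 0. Elsewhere the ratio ran the opposite way. The 2 windows of hsa-mir-16-1 (-1.29 and -1.15) and the single window of hsa-mir-195 (-1.34), genes that share a seed, were all toward IgG, the former among the dimmest windows of the arrays. The 8 windows of hsa-mir-221 ran from -2.11 to -1.06 and the 9 windows of hsa-mir-363 from -3.12 to -1.04, every one toward IgG. Both genes are on the X chromosome, and their lowest windows were dim, brighter than 8.63% and 2.38% of the windows of the array. Behind hsa-mir-125b-1, 13 of 14 windows were toward IgG with a mean of -1.87. Other genes that share a seed differed in side. Toward the IP were 1 window of hsa-mir-146b, 2 of hsa-mir-129-2 and 1 of hsa-mir-29c. Toward IgG were 2 windows of hsa-mir-146a, 2 of hsa-mir-129-1 and 1 of hsa-mir-29a. For hsa-mir-9-3 3 windows were toward the IP, while hsa-mir-9-2 had none past 2-fold.

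Over all miRNA genes, 27 of 85 had a window toward the IP (31.8%, against 17.2% of all genes with a downstream window) and 39 had one toward IgG (45.9%, against 29.1%). A gene with more windows has more chances to be counted, and the miRNA genes had 726 windows. By window the miRNA genes gave 8.40% toward the IP and 17.2% toward IgG with a median of -0.16, close to the values of all downstream windows. After normexp correction 17 miRNA windows were left toward the IP and 42 toward IgG. Of the 85 genes, 19 had downstream windows below 0 throughout and 15 above 0 throughout.

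**Figure D1:**
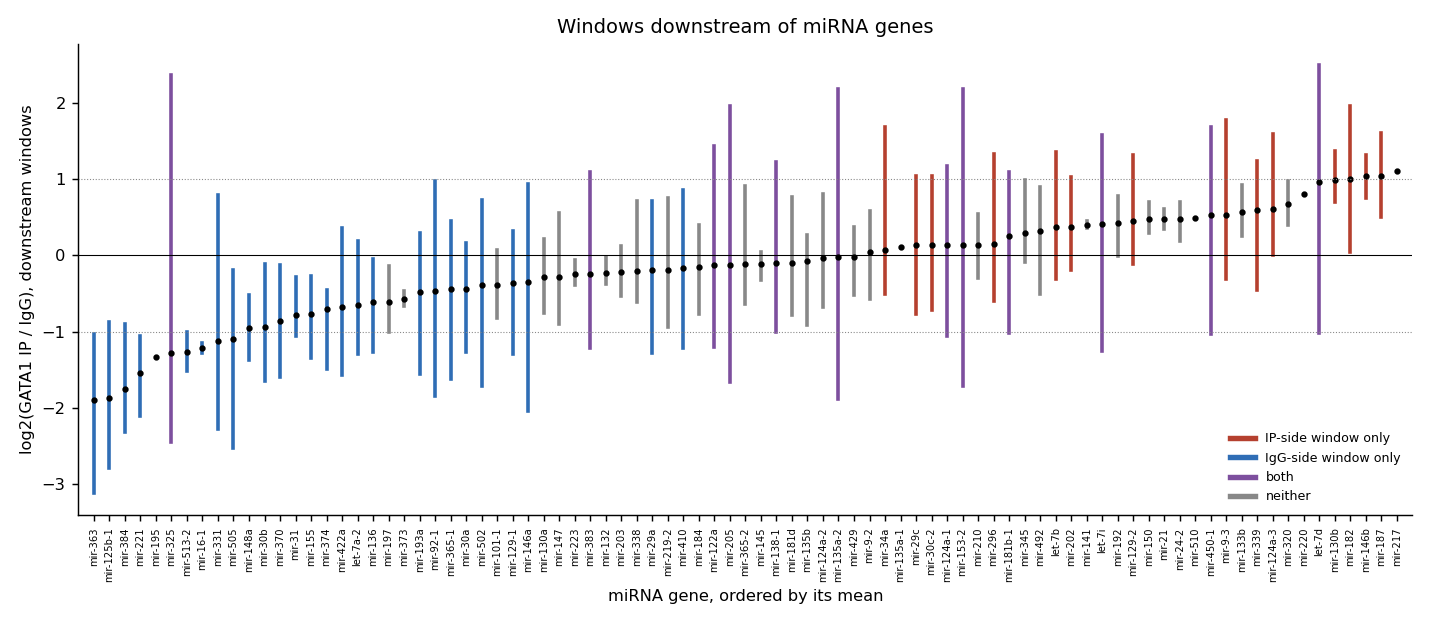
Each vertical line spans the lowest to the highest downstream window of 1 of the 85 miRNA genes, as log2(GATA1 IP / IgG), and the dot is the mean of its windows; dotted lines mark 2-fold and colors show on which side a gene had a window past it. The genes ran from hsa-mir-363 at a mean of -1.90 to hsa-mir-217, a gene with 1 window at 1.11, and hsa-let-7d held the highest window at 2.49.

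Genes of erythroid cells and megakaryocytes, the lineages in which GATA1 acts, were represented by 13 of the 62 listed genes. Their 56 downstream windows had a median of 0.15 log2 units, which was -0.01 after normexp background correction and -0.06 over single probes. Of these windows 3 were toward the IP (5.36%) and 5 toward IgG (8.93%), so the share toward the IP was not above that of all downstream windows. The 3 windows belonged to the globin genes HBQ1 and HBB and to GP9.

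HBB, the adult beta-globin gene, had the brightest of these. From 1607 to 2345 bp behind its start, the 5 downstream windows read 0.56, 0.55, 0.80, 0.98 and 1.498 log2 units, and all 5 were in the brightest bin of the array. The 6 single probes were uneven, at 0.05, 1.42, 0.18, 0.79, 1.95 and 1.75 in the order of their distance. The highest window covered chr11:5202396-5202696 in the coordinates of the files, 1037 bp past the last probe inside the gene. The same gene gave a different picture elsewhere. Its 8 windows inside the gene lay between -1.04 and -0.01, and its 33 promoter windows lay between -1.42 and 0.38 with 9 toward IgG. The highest downstream window of HBB remained toward the IP under each of the 7 other treatments of the signal tried (1.22 to 1.95).

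The 2 other genes of the beta-globin cluster with a downstream window were below 0 there. HBE1, the embryonic globin gene, had 4 downstream windows between -1.41 and -0.86, with 3 toward IgG. HBG1, a fetal globin gene, had 1 window at -0.59 with probes from -1.19 to 0.10. In the alpha-globin cluster, HBQ1 had 5 windows from 0.19 to 1.57, but the highest of them drew on a probe of 3.45 that lies inside the gene. Its own downstream probes ran from -0.37 to 1.00. HBZ, the embryonic alpha-type gene, had 2 windows at 0.22 and 0.42. ERAF, now called AHSP, encodes the chaperone of free alpha-globin and had 6 windows from -1.28 to 0.62. UROD, a gene of heme synthesis, had 6 windows from -0.95 to 0.24.

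Among the platelet genes, GP9, a subunit of the receptor for von Willebrand factor, had 1 window of 7 toward the IP. That window was at 1.36 with probes of 1.19, 0.94 and 1.96, and it was dim, brighter than 12.2% of the windows of its array. It fell to 0.53 after normexp correction and to 0.87 with windows of 5 probes, both short of 2-fold. A subunit of the same receptor, GP1BA, had 2 windows at -0.48 and -0.41. ITGA2B, the platelet integrin alpha chain, had 13 windows between -0.50 and 0.50, far behind the start of the gene but 806 bp from the start of another annotated transcript. Platelet factor 4 (PF4) had 1 window at -0.48 and its relative PF4V1 had 3 windows from -1.20 to -0.70.

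**Figure D2:**
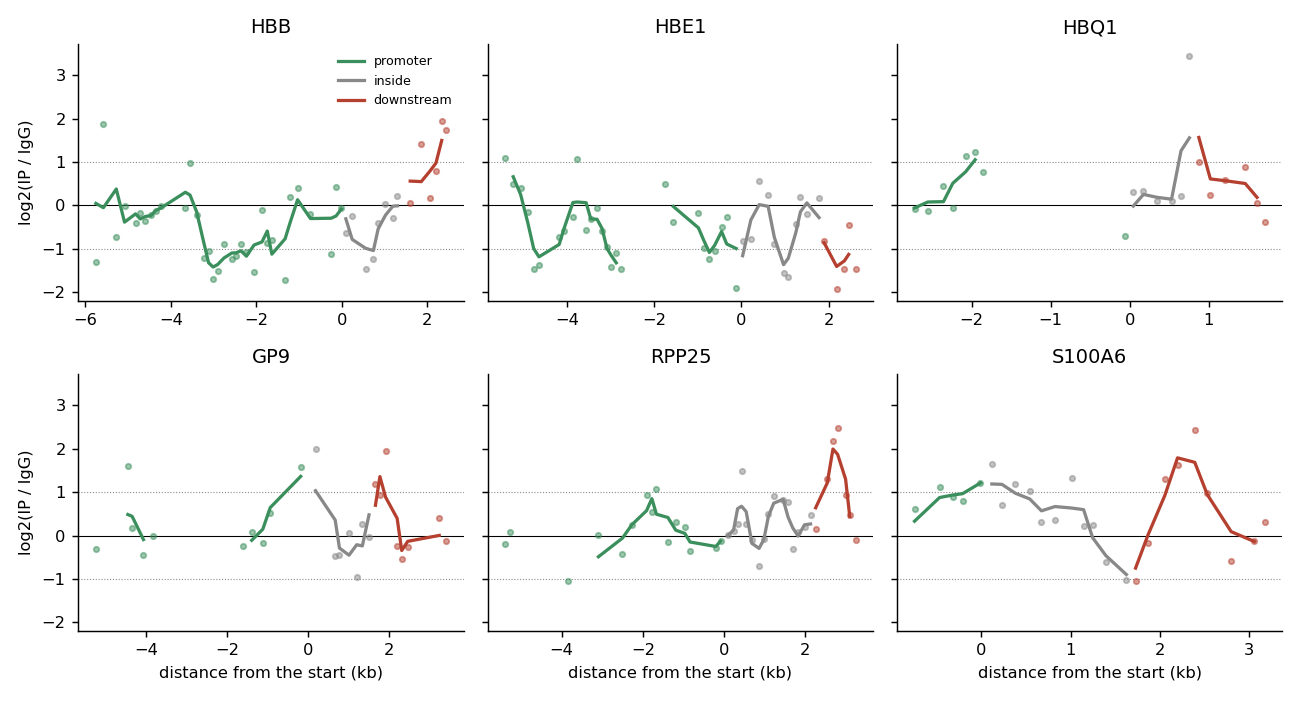
Ratio against distance from the transcription start for HBB, HBE1, HBQ1, GP9, RPP25 and S100A6, with single probes as dots and 3-probe windows as lines, colored by the class of the center probe; dotted lines mark 2-fold. The HBB line rises behind the gene to 1.498, the HBE1 line stays at or below -0.86 there, and RPP25 and S100A6 each show a rise and a fall behind the gene with tops of 2.00 and 1.79.

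The brightest bin held few downstream windows. It had 1066 of the 6451 downstream windows (16.5%), with 34 toward the IP (3.19%) and 20 toward IgG (1.88%). All windows of this bin gave 6.19% and 1.83%, so the downstream share toward the IP was below that of the arrays. The highest belonged to RPP25, a protein subunit of ribonuclease P, with windows of 0.64, 1.21, 2.00, 1.87, 1.30 and 0.44 from 2254 to 3094 bp behind the start. The highest one covered chr15:73034010-73034311, and its 3 probes lay between 1.31 and 2.49. Inside RPP25 no window passed 0.84, and none of its 12 promoter windows passed 0.85. S100A6, which encodes a small calcium-binding protein, had a similar shape. Its windows rose from -0.75 at 1727 bp to 1.79 at 2197 bp and 1.69 at 2390 bp and were back at 0.09 by 2798 bp. The window of S100A6 at the top covered chr1:150319371-150319758.

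The other bright windows ran from 1.44 to 1.77. HES6, a helix-loop-helix factor of the Hairy family, rose over its last windows (0.51, 1.28 and 1.77) and was highest at the last one. C6orf21, now called LY6G6F, encodes an immunoglobulin-type membrane protein of platelets and had 4 windows from 0.86 to 1.502 in one of the brightest regions of the array. QIL1 (MICOS13), a component of the mitochondrial cristae complex, had a bright window of 1.47 with probes from 0.73 to 2.83. TMSB10, which encodes an actin-binding thymosin, had its top window at 1.44 but only 0.96 with windows of 5 probes. The bright window of E2F5, a cell cycle factor, was at 1.57. It lay 42908 bp behind the E2F5 start but 36 bp from the start of another annotated transcript, so it is downstream of one gene model and at the start of another.

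Away from the brightest bin the ratios were larger in both directions. The highest downstream regions with at least 2 windows past 2-fold toward the IP were those of POU3F4 (2.98), GPR101 (2.86), C9orf3 (2.85), BEX2 (2.81) and NGFRAP1 (2.80). They were followed by VTN (2.61), OR2B11 (2.60), CTAGE1 (2.60), LOC340602 (2.58) and MAS1L (2.56). POU3F4, a developmental transcription factor of brain and inner ear, had probes of 3.80, 2.64 and 2.49 in its top window, at chrX:82571546-82571879, and 4 of its 5 windows toward the IP. Its 5 windows inside the gene were all below 0, from -2.32 to -0.61. For C9orf3 (AOPEP), an aminopeptidase gene, the probes read 5.14, 2.52 and 0.88. That window lay 361307 bp behind the gene's start and 1998 bp from the start of hsa-mir-24-1. For VTN, the gene of the adhesion protein vitronectin, 1 probe of 5.11 stood beside probes of 2.07 and 0.63. The VTN window also lay upstream of another annotated transcript, at -1768 bp from its start. All 10 of these windows were dimmer than most windows of their array, C9orf3 being brighter than 30.9% of them and LOC340602 (EZHIP) brighter than only 1.21%.

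Much of this group depended on the background correction. After normexp correction, BEX2 (-0.04) and LOC340602 (-0.22) no longer had a positive window, and POU3F4 (0.31) and GPR101 (0.20) fell far short of 2-fold. VTN (0.93), NGFRAP1 (0.93), MAS1L (0.72) and CTAGE1 (0.63) also missed 2-fold. On the IgG side the lowest regions were those of OR5P3 (-4.58), ZCCHC13 (-3.92), ACTRT1 (-3.74), CDR1 (-3.55) and hsa-mir-363 (-3.12). Behind OR5P3, an olfactory receptor gene, the 3 probes of the lowest window read -4.35, -3.95 and -5.45.

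Of these 15 regions, 9 were on the X chromosome. The 310 downstream windows on the X chromosome gave 12.9% toward the IP and 31.0% toward IgG, and 74.8% of them were in the dimmest bin. On chromosomes 1 to 22 the 6117 downstream windows gave 6.51% and 14.5%, with 35.2% in the dimmest bin. The windows inside genes differed in the same manner, with 12.9% and 15.2% on the X chromosome against 7.38% and 7.70% on the other numbered chromosomes. The part of brightness in this was not tested.

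The group with the most downstream windows was that of the olfactory receptors, odorant receptors of the nasal epithelium whose coding part is a single short exon. Their 228 genes had 1070 downstream windows, of which 68 were toward the IP (6.36%) and 344 toward IgG (32.1%), with a median of -0.58. The median was -0.58 on chIP1 and -0.57 on chIP2. On chromosome 11, which carries the most of these genes, 172 of 488 windows were toward IgG, and on chromosome 1 this was 64 of 167. On chromosome 17 it was 5 of 35, with a median of 0.07. The other windows of the same genes, before and inside them, were also low (28.9% toward IgG, median -0.50). Olfactory receptor windows were dim, 73.6% of them being in the dimmest bin. Within each bin their median was lower than that of all other genes. From the dimmest to the brightest bin the medians were -0.55, -0.66, -0.60 and -0.39, against -0.30, -0.13, -0.02 and 0.06. In the dimmest bin the olfactory receptor windows were themselves dimmer, with a median log2 signal of 7.82 against 8.19. The brightest bin held 18 olfactory receptor windows of 9 genes. The part of brightness in these differences was not tested. Without the olfactory receptors, 5381 windows remained with 372 toward the IP (6.91%) and 641 toward IgG (11.9%), and the share of the IP side was 36.7%. After normexp correction the olfactory receptors kept a median of -0.50, but 3 of their windows were past 2-fold toward the IP and 98 toward IgG.

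Other tissue-specific gene clusters also had medians below that of all downstream windows, while their shares toward IgG ran from 0% to 31.9%, where all downstream windows gave 15.3%. Some of these lists lay on 1 array only. The keratin associated proteins were on chIP2, where all downstream windows gave 16.7% toward IgG. The cornified envelope and interferon lists were on chIP1, where this was 13.5%. The taste receptors had 23 of 72 windows toward IgG and 5 toward the IP (median -0.65), TAS2R7 being the lowest at -2.17 and TAS2R1 the highest at 1.42. The late cornified envelope and small proline-rich proteins, which build the outer skin layer, had 25 of 81 toward IgG and 9 toward the IP (median -0.63). Within that group 6 of the 9 windows of LCE1A were toward the IP, up to 2.48, while SPRR2G went down to -2.73. After normexp correction the highest windows of TAS2R1 (0.71) and LCE1A (0.98) missed 2-fold. The keratin associated proteins of hair had 25 of 155 toward IgG (16.1%) and 8 toward the IP (median -0.30). Type I interferon genes had 3 of 29 toward IgG (10.3%) and none toward the IP (median -0.40), and the 8 defensin windows were all short of 2-fold (median -0.67). After normexp correction the windows toward IgG numbered 4 for taste receptors, 9 for the cornified envelope list, 3 for keratin associated proteins and 0 for interferons. Toward the IP 1 window was left in these lists, of a keratin associated protein. The other windows of the same genes, without normexp correction, also had medians below 0. They gave 24.6% toward IgG for taste receptors (median -0.57) and 19.9% for keratin associated proteins (-0.31). For interferons this was 22.3% (-0.29), for the cornified envelope list 15.3% (-0.12) and for defensins 3.57% (-0.18).

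The replication-dependent histone genes, short genes without introns that are active in dividing cells, stood near 0. Their 41 genes had 312 downstream windows with 14 toward the IP (4.49%) and 11 toward IgG (3.53%), and the median was 0.04. Of these windows 302 were on chIP1. Only 20.5% of them were in the dimmest bin, but within that bin 1 of 64 histone windows was toward IgG, against 351 of 1620 for all genes outside the olfactory receptors. In the next bins this was 5.88% against 12.5% and 2.60% against 7.31%. In the brightest bin the order was turned, with 3.49% of histone windows against 1.81%. HIST1H1T (H1-6), the testis linker histone gene, was the highest with 4 windows from 0.92 to 1.76 (top window 0.54 after normexp correction), and HIST1H3G (H3C8) was the lowest at -1.34. After normexp correction the histone list had 2 windows toward the IP and 1 toward IgG, with a median of 0.07.

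The lists with higher medians were small. The SOX and FOX factors, single-exon or short developmental regulators, had 17 of 51 windows toward the IP (33.3%) and 8 toward IgG (15.7%). All downstream windows gave 6.82% and 15.3%. The SOX and FOX median was 0.45, but after normexp correction it was 0.01 and no window was left toward the IP. The other windows of these genes gave 16.0% toward the IP and 6.77% toward IgG (median 0.26). Of the 17 downstream windows toward the IP, 14 were in the dimmest bin. FOXL1 held 5 of the 17, and its highest window of 2.55 drew on 1 probe of 4.55. The immediate early and ID genes had 3 of 23 windows toward the IP and none toward IgG (median 0.42), and their median ranged from 0.32 to 0.43 over the other treatments. All 3 belonged to ID3, an inhibitor of helix-loop-helix factors, with 6 windows from 0.05 to 1.23 and a top of 0.98 after normexp correction. The other windows of the immediate early and ID genes were similar (17.4% toward the IP, none toward IgG, median 0.38).

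For the remaining lists the counts were low. The heat shock protein list had windows behind 2 genes, and the 8 of 15 toward IgG all belonged to 1 of them, while the other windows of these genes had a median of 0.18. Chemokine ligands had 3 windows toward the IP and 1 toward IgG of 24, HOX genes 2 and 1 of 22, and insulin-like and pituitary hormones 3 and 6 of 27. All 3 lists had a median above 0 (0.30, 0.14 and 0.09), which turned below 0 after normexp correction (-0.04, -0.16 and -0.23). Ribosomal protein genes had 1 and 7 of 35 (median -0.13, but 0.03 after normexp correction), tumor necrosis factors and interleukins 0 and 2 of 10, and S100 protein genes 2 and 0 of 17. The 17 metallothionein windows, the 3 apolipoprotein windows and the 3 windows of the cell cycle and BCL2 list were all short of 2-fold, and no protocadherin gene had a downstream window. The 817 genes in no list gave 6.52% toward the IP and 10.6% toward IgG, with a median of -0.07.

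**Figure D3:**
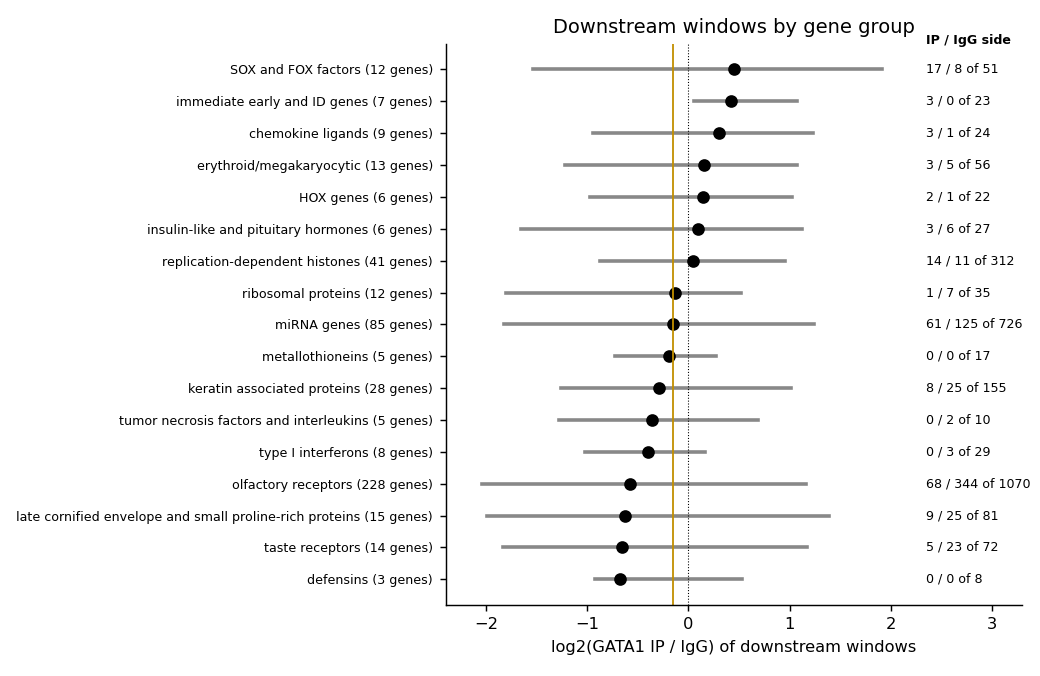
Median (dot) and 5th to 95th percentile (bar) of log2(GATA1 IP / IgG) over the downstream windows of each gene group with at least 3 genes, with the number of windows past 2-fold on the IP and IgG side at the right; the vertical solid line is the median of all downstream windows (-0.15). Olfactory receptors, taste receptors and the cornified envelope genes lie to the left of it, and histones lie at 0.04.

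Set beside the other probe classes, downstream windows differed mainly toward IgG. On chIP1 they gave 6.74% toward the IP and 13.5% toward IgG, and on chIP2 they gave 6.89% and 16.7%. Windows inside genes gave 8.18% and 8.17% on chIP1 and 7.07% and 7.89% on chIP2. Promoter windows of all genes lay between them toward IgG, at 11.3% and 11.4%. Those of the genes with a downstream window were close to the downstream windows, at 13.8% and 17.2% toward IgG. Windows between 2 divergent genes were turned to the IP side on both arrays, at 9.40% and 10.5%, against 6.15% and 6.38% toward IgG. The same order of the classes by the share of the IP side was seen on both arrays.

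Brightness moved with these shares. The dimmest bin held 37.3% of the downstream windows. From the dimmest to the brightest bin, the downstream share toward IgG was 25.5%, 15.1%, 7.95% and 1.88%, and that of windows inside genes was 18.3%, 9.49%, 5.38% and 1.69%. The share toward the IP was 9.93%, 7.10%, 3.87% and 3.19% downstream and 11.8%, 8.26%, 5.87% and 5.61% inside. In each bin the downstream share was the higher one toward IgG and the lower one toward the IP, and the gap toward IgG was smallest in the brightest bin. Downstream probes had median raw signals of 484 (IP) and 399 (IgG), where all genomic probes had 543 and 425.

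**Figure D4:**
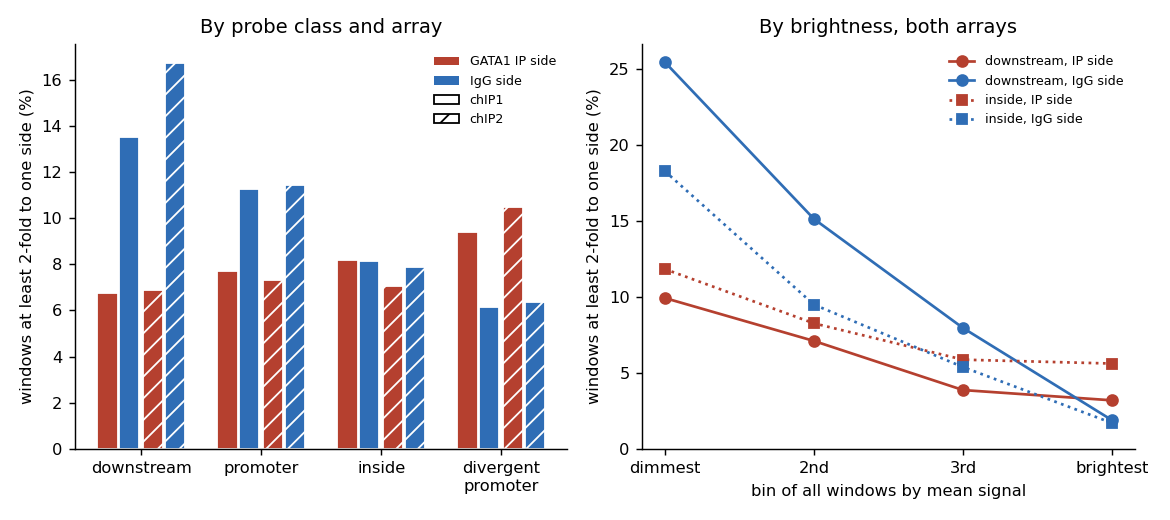
Left, percent of windows at least 2-fold to the GATA1 IP or the IgG side for each probe class on chIP1 (plain bars) and chIP2 (hatched bars); right, the same percent for downstream and inside windows in the 4 bins of mean signal, both arrays together. The downstream IgG bars are the highest of the left panel (13.5% and 16.7%), and the downstream IgG line falls from 25.5% to 1.88% with brightness.

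The gap to the gene body also differed with the distance from the start. At 1000 to 1500 bp from the start, 20.7% of downstream windows and 7.98% of inside windows were toward IgG, and at 1500 to 2000 bp this was 20.2% and 10.1%. Without the olfactory receptors the downstream share in these steps was 14.7% and 14.3%. At 2500 to 5000 bp the order was turned, with 8.14% downstream and 10.9% inside. At 5000 to 10000 bp it was back, with 11.2% downstream and 8.13% inside. Farther out it was turned again, with 8.03% and 10.0% at 10000 to 50000 bp and 14.1% and 17.5% beyond. Downstream windows beyond 2500 bp gave 5.91% toward the IP and 9.33% toward IgG over 527 genes, near the shares of all windows, while those within 2500 bp gave 7.34% and 18.6% over 940 genes. These shares include the olfactory receptors. The windows beyond 2500 bp were brighter, with a median log2 signal of 9.77 against 9.11. The parts of brightness and gene family in this were not tested.

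**Figure D5:**
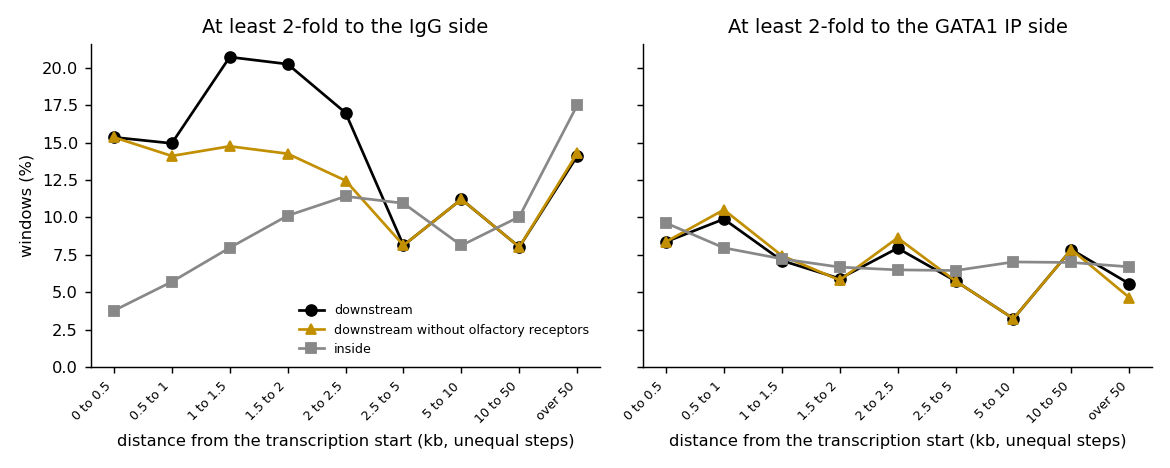
Percent of windows at least 2-fold to the IgG side (left) and to the GATA1 IP side (right) against distance from the transcription start, for downstream windows, downstream windows without olfactory receptor genes, and windows inside genes. On the left the downstream lines lie above the inside line up to 2.5 kb and on both sides of it beyond; on the right the widest gap is at 5 to 10 kb, with 3.24% downstream and 7.03% inside.

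Measured from the last probe inside the gene, the IgG side rose from 13.1% of windows within 250 bp to 15.0%, 16.8% and 18.5% in the steps up to 500, 1000 and 2000 bp, and was 8.91% beyond. The IP side stayed between 6.30% and 7.66% over the same steps. For the next split a downstream window was counted only when it lay upstream of another annotated start, within 10000 bp of it. Windows just past another start, such as that of E2F5, are thus among the rest. The counted windows gave 5.37% toward the IP and 9.06% toward IgG (2274 windows), and the rest gave 7.61% and 18.6% (4177 windows). The former were brighter, with a median log2 signal of 9.86 against 9.09. The part of brightness in this was not tested.

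Within the same genes, the mean downstream window was below the mean inside window in 743 of 1212 genes, with a median difference of -0.18 log2 units and a middle range from -0.62 to 0.27. The counts were 331 of 540 genes on chIP1 and 412 of 672 on chIP2. Against the promoter windows of the same gene it was lower in 580 of 1037 genes, with a median difference of -0.10. The promoter windows of these genes, at 7.27% toward the IP and 15.6% toward IgG, resembled the downstream windows more than the inside windows did (8.15% and 7.70%).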

How the data were processed

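ChIP DNA of non-treated Meg-01 cells was measured on a set of 2 arrays, 1 hybridization each. Per the file headers, the authors deposited intensity values made with Agilent Feature Extraction 9.5.3.1: processed intensities of both channels, mean and background intensities, flags and probe annotation. The deposited series table holds log10 ratios. The genome build was not given in the sources used here, and coordinates are those of the files.

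Here log2(Cy5/Cy3) of the processed intensities was centered on each array's median. Outlier probes and probes that stood clear of background in neither of the channels were dropped (26 of 8085 downstream probes). Means of 3 neighboring probes with steps of at most 1000 bp were called at 2-fold, with 4 equal bins of mean signal per array. Loess (span 0.3) and normexp (offset 50) were run in limma 3.58.1 (R 4.3.3), all else in Python 3.11.15 (pandas 2.3.3). The window code was run on simulated ratios with planted shifts well past 2-fold and low noise. This checked the code only and not how reliable the calls are in these data. Arrays allow no test: their number limits the precision. Members and 21 gene lists were chosen with earlier results of these data known. Genes were named by rule: the 10 highest IP-side and 5 lowest IgG-side regions with at least 2 windows, the 8 highest windows of the brightest bin, the erythroid/megakaryocytic list, and the extremes of each list with at least 3 genes. miRNA genes, ITGA2B's second transcript and the X chromosome were singled out after values were seen. Probe sequences were not used here, so no motif was searched. The result of 1 listed gene is not reported here.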

Additional observations from a re-analysis of the deposited data

How the results depend on the processing

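Downstream windows had a lower share of the IP side than all windows under each setting tried (25.4% to 37.6% against 39.5% to 56.6%). Of 434 values of the 63 named genes under 7 other treatments, 407 kept their direction and their side of 2-fold. Of the rest, 22 no longer passed it, 3 newly passed it and 2 turned negative (BEX2 at -0.043 and LOC340602 at -0.22, both after normexp correction). These counts miss losses on the IgG side. After loess all 63 genes counted as unchanged, yet the interferon and HOX lists kept 0 windows toward IgG (main values 3 and 1). After normexp the ribosomal protein list and the list of tumor necrosis factors and interleukins also kept 0 (main values 7 and 2). The main values were 440 windows toward the IP, 985 toward IgG, 30.9% for the IP side, and 233 regions and 227 genes toward the IP. In that order, normexp gave 91, 252, 26.5%, 56 and 56, single probes gave 836, 1622, 34.0%, 539 and 498, and windows of 5 probes gave 221, 616, 26.4%, 96 and 95. A threshold of 1.5-fold gave 1024, 1932, 34.6%, 459 and 433, and 3-fold gave 114, 334, 25.4%, 72 and 70. Loess gave 502, 832, 37.6%, 255 and 247, its counts being within 1.5 times the main ones. Leaving out the olfactory receptors, an alternative chosen after seeing the data, gave 641 windows toward IgG and a share of 36.7%. For normexp, single probes, longer windows and loess the cause was not tested, while the thresholds and the left-out genes change the counts by construction. The series table, no filter on dim probes, both channels above background, and windows with 3 downstream probes kept the 4 counts within 1.5 times the main ones and the share between 29.6% and 31.0%. With 1 hybridization per probe no replicate could be left out, and a dim signal limits a ratio more than a bright one. No paired analysis was possible because the 2 arrays hold different probes and no test was run.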
